A study of Mus musculus with 7 samples.

Results

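RNA from mouse embryonic fibroblasts that carried a ligase-dead Mdm2 was set against RNA from fibroblasts with no Mdm2 at all. The members were the 4 libraries whose sample titles name these 2 genotypes, 2 libraries each, out of 7 libraries in the series. The Mdm2 C462A libraries lacked p53 and carried the C462A substitution as a knock-in at Mdm2. The p53/Mdm2 KO libraries lacked both p53 and Mdm2. The other 3 libraries, p53 KO, lacked p53 alone and served only as a reference level, so loss of p53 was common to all 7. No treatment or time point distinguished the groups. The labels do not say whether replicates came from separate embryos, cultures or clones, so a p-value reflects only the variation among these samples, part of which may be technical.

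Mdm2 attaches ubiquitin to p53, which sends p53 to the proteasome, and its gene is itself switched on by p53. Ligase activity depends on the RING domain at its carboxyl end, where cysteines hold zinc; the C462A substitution removes such a cysteine, so that a protein is made that lacks the ligase function. In cells without p53 the comparison asks what that protein is associated with that the absence of Mdm2 is not. Mdm2 also has partners on chromatin, among them the Polycomb repressive complexes that place marks on silent developmental genes.

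Reads were recovered from the deposited values as described under processing, and levels below are normalized reads, which are comparable between libraries for 1 gene but not between genes. Library totals ran from 28.5 to 41.5 M reads (M for units of 1e6). A count of 0 allowed up to 3 reads, equal to 2.65 to 3.86 normalized reads depending on the library, counting error only. Of 29955 gene rows, 16900 reached a mean of 10 normalized reads and were tested. Differences are Mdm2 C462A minus p53/Mdm2 KO on the deposited log2 scale, where genes with few reads appear to differ by less than they do in reads.

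The 4 libraries did not differ by genotype alone. Summed reads of the Y-linked genes were 25.1 and 5642 in Mdm2 C462A replicates 1 and 2, and 4136 and 54.1 in p53/Mdm2 KO replicates 1 and 2. Xist, the RNA of the inactive X chromosome, was at 38329 and 90.0 in Mdm2 C462A and at 2492 and 55502 in p53/Mdm2 KO. Each genotype thus held 1 library with high and 1 with low Y-linked reads. The p53 KO libraries had 9.1, 4488 and 38.8 Y-linked reads. Fibroblast markers were abundant in every library, at 547359 to 1042975 summed reads in the 4 libraries compared. The 10 mesothelial markers, of the cells that line body cavities, summed to 3387 and 40805 in Mdm2 C462A and to 16437 and 3515 in p53/Mdm2 KO.

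Mdm2 transcript was not lower in the knockout libraries. It stood at 2033 and 2887 normalized reads in Mdm2 C462A, at 1575 and 2334 in p53/Mdm2 KO, and at 1746, 1994 and 1914 in p53 KO. The 2 genotypes overlapped, with means of 2459.7 ± 604 and 1954 ± 537 (SD, n = 2 each) and a log2 difference of 0.33 (SE 0.263). There is 1 value per gene and library, and how reads were counted over the gene is not given. The values therefore show neither a deletion of part of it nor a point substitution, and the labels could not be checked from them. Trp53, the gene of p53, gave 1339 and 1668 normalized reads in Mdm2 C462A and 1603 and 1775 in p53/Mdm2 KO, which also overlapped. Mdm4, which encodes the partner that pairs with Mdm2 through its own RING, gave 1025 and 2156 against 759.9 and 1263. Mdm4 overlapped between genotypes too, with a log2 difference of 0.59 (SE 0.517).

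No gene passed the test between ligase-dead Mdm2 and absent Mdm2. With limma's test and Benjamini-Hochberg adjustment over all 16900 genes, 0 genes (0.00%) had an adjusted p under 0.05, and 0 did in the fit on recovered reads with voom. At an unadjusted p under 0.05 there were 503 genes (2.98%), fewer than the threshold alone would give. Of these, 203 were higher in Mdm2 C462A (1.20%) and 300 lower (1.78%). That split was 241 higher and 238 lower when libraries were scaled to their totals, and 225 and 213 with voom. What follows is therefore a description of the 4 libraries by values and counts.

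A second description counted genes whose 2 Mdm2 C462A libraries both lay above, or both below, the 2 p53/Mdm2 KO libraries. This held for 5558 genes (32.9%), 2667 higher in Mdm2 C462A (15.8%) and 2891 lower (17.1%). With a gap of at least 1 on the log2 scale between the nearest libraries it held for 46 genes (0.272%), 15 higher (0.0888%) and 31 lower (0.183%). These shares are the background for every count below. With 2 libraries a genotype, labels unrelated to the values would leave about as many genes without overlap as the 5558 found.

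The closest pair of libraries crossed the genotypes. Mdm2 C462A replicate 1 and p53/Mdm2 KO replicate 1 were over 2-fold apart at 487 genes (2.88%). The 2 Mdm2 C462A libraries were over 2-fold apart at 2218 genes (13.1%), and the 2 p53/Mdm2 KO libraries at 1532 (9.07%). Libraries of 1 genotype were thus further from each other than this cross-genotype pair. The other 3 pairs between genotypes differed at 1918 to 2875 genes.

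**Figure D1:**
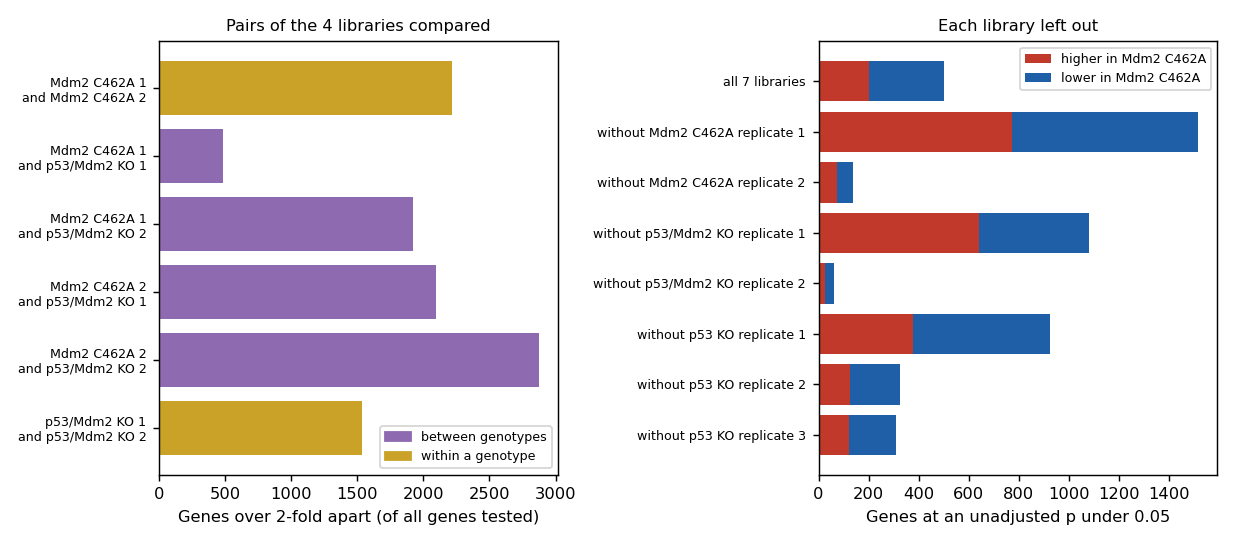
Left, number of genes over 2-fold apart (x axis) for each pair of the 4 libraries compared (y axis), coloured by whether the pair is between or within genotypes; the pair of the 2 first replicates, at 487 genes, is the shortest bar. Right, number of genes at an unadjusted p under 0.05 (x axis), split by direction, with all 7 libraries (503 genes) and with each library left out; the count runs from 61 to 1519.

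Single libraries set how many genes reached an unadjusted p under 0.05. The count was 1519 without Mdm2 C462A replicate 1 and 136 without replicate 2. It was 1083 without p53/Mdm2 KO replicate 1 and 61 without replicate 2. Leaving out a p53 KO library, which enters only through the spread, gave 926, 324 and 311 for replicates 1, 2 and 3. No gene passed the adjusted threshold in any of these 7 fits.

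Among named genes with at least 100 normalized reads in the higher group, no overlap and an unadjusted p under 0.01, none of which passed the adjusted threshold, the largest excess in Mdm2 C462A was that of Gbp1. Gbp1, an interferon-induced GTPase of host defence, was at 489 and 213 normalized reads in Mdm2 C462A, at 11.1 and 2.58 in p53/Mdm2 KO and at 127, 199.6 and 394 in p53 KO. The Mdm2 C462A libraries were in or above the p53 KO range, and both p53/Mdm2 KO libraries were far below it, replicate 2 under the 3-read limit. The log2 difference was 3.99 (SE 0.611), with means of 351 ± 196 and 6.85 ± 6.05 (SD, n = 2 each).

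Ucp2, an inner-membrane mitochondrial carrier, had the next largest excess. Its values were 1757 and 1356 in Mdm2 C462A, 229 and 33.5 in p53/Mdm2 KO, and 1563, 3521 and 2797 in p53 KO, a log2 difference of 3.78 (SE 0.740). Odz4, a teneurin cell-surface protein, was at 1153 and 1729.5 against 309.9 and 74.7, and at 399, 862 and 916 in p53 KO, a log2 difference of 3.02 (SE 0.667). The 2 genes differed in their place against p53 KO. Ucp2 was low without Mdm2 and near p53 KO with the mutant, whereas Odz4 lay below all p53 KO libraries without Mdm2 and above all of them with the mutant.

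The other genes in this direction had smaller differences. Syngr1, a synaptogyrin of vesicle membranes, was at 184 and 285 against 90.0 and 19.3 (log2 difference 1.97, SE 0.539). Abca8b, a membrane transporter, was at 431 and 656 against 164 and 106 (1.86, SE 0.457). Klhl24, an adaptor of cullin ubiquitin ligases, was at 2003 and 3292 against 1309 and 668 (1.44, SE 0.394). In each of the 3 the replicates of a genotype were themselves apart, most of all in p53/Mdm2 KO for Syngr1. By contrast Dhtkd1, Adi1 and Foxf2 had close replicates.

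Dhtkd1, an enzyme of mitochondrial lysine breakdown, gave 396 and 367 normalized reads in Mdm2 C462A, 123 and 153 in p53/Mdm2 KO, and 155, 169.8 and 179 in p53 KO. Adi1, of the methionine salvage pathway, gave 2206 and 2259 against 1099 and 993, with p53 KO at 1437, 1317 and 1100.2. Foxf2, a forkhead factor of mesenchyme, gave 205 and 198 against 91.8 and 88.8, with p53 KO at 40.9, 39.9 and 41.0. Dhtkd1 and Adi1 thus lay above the p53 KO range with the mutant. Without Mdm2 they were below it only narrowly, at 153 against 155 for Dhtkd1 and 1099 against 1100.2 for Adi1. The log2 differences of p53/Mdm2 KO from p53 KO were -0.25 for Dhtkd1 and -0.28 for Adi1. Foxf2 lay above the range in both genotypes. Between mutant and loss the log2 differences were 1.35 (SE 0.247) for Dhtkd1, 1.08 (SE 0.194) for Adi1 and 1.01 (SE 0.243) for Foxf2.

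In the other direction, 3 of the genes were of the cell surface or matrix. Gjb2, the gap-junction protein connexin 26, was at 48.1 and 39.7 in Mdm2 C462A, at 132 and 415 in p53/Mdm2 KO and at 456, 314 and 261 in p53 KO. Pcolce2, which enhances procollagen processing, was at 269.6 and 183 against 662 and 1019.7, with p53 KO at 335 to 789.9. Cav1, the coat protein of caveolae, was at 10466 and 4218 against 19449 and 22672, with p53 KO at 22408, 19126 and 30252. Cav1 and Gjb2 were below every p53 KO library in both Mdm2 C462A replicates. The log2 differences were -2.04 (SE 0.532) for Gjb2, -1.80 (SE 0.450) for Pcolce2 and -1.66 (SE 0.447) for Cav1.

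Chst1, a sulfotransferase of sugar chains, was at 106 and 69.7 in Mdm2 C462A against 231 and 426 in p53/Mdm2 KO. Als2cl was at 397 and 288 against 830.4 and 1125, with p53 KO at 448, 569.9 and 491. Rassf6, a Ras-association protein, was at 103 and 101 against 207 and 473. Als2cl was below the p53 KO range with the mutant and above it without Mdm2. The log2 differences were -1.66 (SE 0.357), -1.46 (SE 0.271) and -1.46 (SE 0.391).

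Fxyd5, a regulator of the sodium pump, was at 325 and 214 against 622 and 901, with p53 KO at 934 to 1398. Gadd45g, a growth-arrest and stress gene, was at 661 and 719 against 1289 and 2686, with p53 KO at 2037 to 2729. Myl9, the regulatory light chain of smooth muscle myosin, was at 5275 and 3088 against 8611 and 12821, with p53 KO at 17741 to 24885. For Fxyd5 and Myl9 all 4 libraries were below p53 KO, and the mutant libraries were the lowest.

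**Figure D2:**
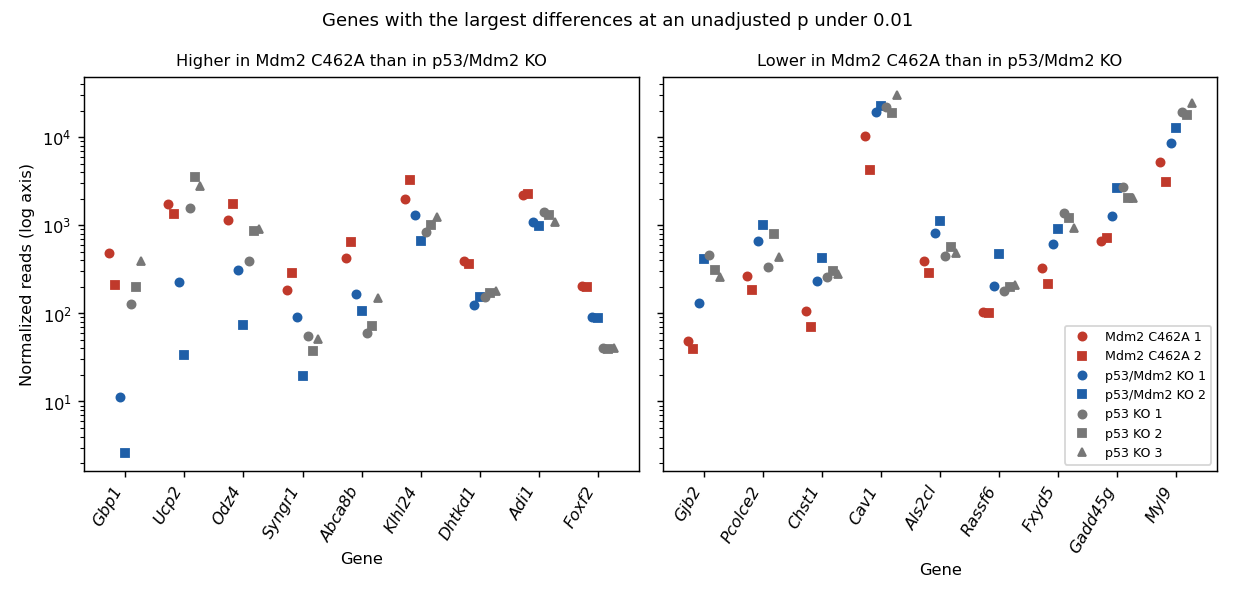
Normalized reads (log axis) of 9 genes higher and 9 genes lower in Mdm2 C462A than in p53/Mdm2 KO at an unadjusted p under 0.01, with 1 point per library. Red points are Mdm2 C462A, blue p53/Mdm2 KO and grey p53 KO; red and blue do not overlap for any gene shown, and for Gbp1 both blue points lie far below the red ones.

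The 46 genes with a gap of at least 1 on the log2 scale were placed against the range of the 3 p53 KO libraries. In 7, both Mdm2 C462A libraries were outside that range and both p53/Mdm2 KO libraries inside it, 4 of them higher and 3 lower in Mdm2 C462A; this class held 15.2% of the 46 and 3.53% of all genes tested. In 10, both p53/Mdm2 KO libraries were outside and both Mdm2 C462A libraries inside, 3 with Mdm2 C462A higher and 7 with it lower, 21.7% against 1.28% of all genes. In 4 the genotypes lay on opposite sides of p53 KO, 8.7% against 0.343%, among them Dhtkd1 by the narrow margin given above. In 3 they lay on the same side, 6.52% against 9.65%, so this class was no more frequent among the 46 than among all genes. The 46 were chosen for their gap, which bears on these shares, and no test was made of them. The remaining 22 fell in none of these classes. Across genes, p53 KO replicate 1 correlated with p53 KO replicates 2 and 3 at 0.9141 and 0.9127, and those with each other at 0.9855. It can therefore set an edge of the range alone.

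Glipr1, a secreted cysteine-rich protein, was in the first class, at 308 and 136 in Mdm2 C462A, 720.0 and 957 in p53/Mdm2 KO and 2429.5, 559.7 and 622 in p53 KO. Ntn4, a netrin of basement membranes, was in it too, at 269 and 239 against 669 and 861, with p53 KO at 372, 275 and 1423. Lgi2, a secreted leucine-rich repeat protein, was a member of it with higher values in the mutant, at 80.2 and 179.9 against 16.7 and 28.3, with p53 KO at 0, 26.0 and 29.1. The p53 KO libraries were wide apart for Glipr1 and Ntn4, so the edge of the range was close to the mutant for Ntn4.

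In the second class Adcyap1r1, the receptor of the neuropeptide PACAP, was at 603 and 532 in Mdm2 C462A, at 2416 and 2790.0 in p53/Mdm2 KO and at 46.4, 1361 and 628 in p53 KO. Stmn2, a microtubule regulator of neurons, was at 210.5 and 31.8 against 874 and 605, with p53 KO at 28.2, 408 and 402. Acvrl1, a type I receptor of the TGF-beta family found in endothelium, was at 52.1 and 91.7 against 245 and 267, with p53 KO at 20.9, 213 and 85.2. These 3 genes were thus highest in the libraries without Mdm2. In each of the 3 the lower edge of the p53 KO range was p53 KO replicate 1 alone. Both Mdm2 C462A libraries for Adcyap1r1 and Stmn2, and replicate 1 for Acvrl1, lay below the other p53 KO libraries. Endothelial markers summed to 1416 and 1182 in Mdm2 C462A, to 1741 and 3657 in p53/Mdm2 KO and to 216 to 6670.0 in p53 KO, and neural markers to 1479 and 2699 against 2482 and 1823; their part in these values was not tested.

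The class with all 4 libraries on the same side of p53 KO held 3 genes, all lower in Mdm2 C462A. Col10a1, a collagen of growth-plate cartilage, was at 257 and 45.0 in Mdm2 C462A and at 615 and 551 in p53/Mdm2 KO, with p53 KO at 843 to 2343. Cxcl1, a chemokine that draws neutrophils, was at 21.1 and 54.7 against 139 and 131, with p53 KO at 185 to 521. Cck, the peptide cholecystokinin, was at 272 and 377 against 927 and 1281, with p53 KO at 0, 221 and 217. Col10a1 and Cxcl1 were lowest with the mutant, and Cck was highest without Mdm2.

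Genes of cell division did not overlap between the genotypes. All 39 genes of a mitosis list were lower in both Mdm2 C462A libraries than in both p53/Mdm2 KO libraries, against 17.1% of all genes tested. Their median log2 difference was -0.94, beside 0.01 over all genes tested, and 30 of the 39 had an unadjusted p under 0.05, none an adjusted one. The list level, the median over members of the difference from the p53 KO mean, was -0.78 and -1.69 in Mdm2 C462A, -0.50 and -0.10 in p53/Mdm2 KO and 0.23, -0.09 and -0.07 in p53 KO. In 38 of the 39 both mutant libraries were below all 3 p53 KO libraries, and in 14 both libraries without Mdm2 were. No share over all genes tested is given for these counts, so they have no background here. The list median was -0.47 without Mdm2 C462A replicate 2 and -1.41 without replicate 1. The 39 members shifted together from library to library, so member counts are not counts of independent observations, here or in other lists. In bulk RNA, fewer dividing cells and less of these RNAs per cell cannot be told apart.

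Cdc20, which turns on the anaphase-promoting ligase, was at 2354 and 1568 normalized reads in Mdm2 C462A, at 3139.7 and 3920.4 in p53/Mdm2 KO and at 5558, 4451 and 4013 in p53 KO. Anln, an actin-binding protein of the cleavage furrow, was at 7020.4 and 4712 against 9121 and 15164, with p53 KO at 10592 to 13113. Racgap1, part of the central spindle, was at 3613 and 2567 against 4695 and 5518, with p53 KO at 5583 to 7378. For Cdc20 and Racgap1 the order was the same, with the mutant lowest, loss of Mdm2 between and p53 KO highest. The log2 differences between mutant and loss were -0.86 (SE 0.270), -1.03 (SE 0.316) and -0.74 (SE 0.244).

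Promoters of mitotic genes often hold the cell cycle genes homology region, a short element bound by the DREAM complex in resting cells and by B-Myb and FoxM1 complexes in dividing ones. Its letters TTTGAA, sought on both strands of the 250 bases before and 50 after each gene start in RefSeq (GRCm38.p6), were found in 23 of the 32 list members with a promoter entry (71.9%) and in 20.2% of 27025 genes. The list was made of known mitosis genes, so this excess says nothing about these libraries. The window of Cdc20, on chromosome 4 at chr4:118437344-118437401, and that of Cdk1, at chr10:69352913-69352967, both on the minus strand, are shown because every gene of this list was lower with the mutant; capitals mark the element, which overlaps none of the other motifs searched.
Cdc20: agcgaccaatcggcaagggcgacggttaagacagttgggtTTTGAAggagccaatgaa
Cdk1: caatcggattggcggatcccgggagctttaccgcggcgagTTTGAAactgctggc
Cdk1, the kinase that drives entry into mitosis, was at 3104 and 1723 normalized reads in Mdm2 C462A, at 4298 and 5509 in p53/Mdm2 KO and at 7757, 4766 and 4899 in p53 KO. Its mutant libraries were the lowest of the 7.

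DNA replication genes were lower too, with a smaller median. All 40 had a lower mean in Mdm2 C462A, 34 without overlap, at a median log2 difference of -0.61. Its level was -0.61 and -1.15 in Mdm2 C462A, -0.36 and -0.22 in p53/Mdm2 KO and 0.68, -0.20 and -0.47 in p53 KO. Rrm2, the small subunit of ribonucleotide reductase, was at 2826 and 826 against 3939.5 and 7256, with p53 KO at 5108 to 8257. Ccne2, a cyclin of S-phase entry, was at 530.2 and 296 against 701 and 1506. Mcm2, a subunit of the replicative helicase, overlapped between genotypes at 4040.4 and 4057 against 4023 and 4563. The list median was -0.30 without Mdm2 C462A replicate 2 and -0.92 without replicate 1.

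Proteasome subunits, the machine that degrades the products of ubiquitin ligases, differed by less. Of 31, 29 had a lower mean in Mdm2 C462A, 25 without overlap, with a median log2 difference of -0.30. Psmd14, the deubiquitinase of the proteasome lid, was at 3404 and 3317 in Mdm2 C462A, at 4095 and 4699 in p53/Mdm2 KO and at 3706, 3819 and 3617 in p53 KO. It thus lay below p53 KO with the mutant and above it without Mdm2, at a log2 difference of -0.38 (SE 0.158). As a list they stood at -0.08 and -0.37 in Mdm2 C462A against 0.09 and 0.07, and the list median was -0.17 without Mdm2 C462A replicate 2.

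Contractile genes were lower with the mutant in both replicates. Of 27 genes of smooth muscle contraction, 24 had a lower mean in Mdm2 C462A and 20 did not overlap, with a median log2 difference of -0.72. The list level was -0.96 and -1.01 in Mdm2 C462A and -0.42 and 0.00 in p53/Mdm2 KO, but the p53 KO libraries themselves spread from -0.61 to 0.37. Acta2, smooth muscle actin, was at 55409.6 and 55053 normalized reads against 90706 and 112617, with p53 KO at 76654 to 198273. Tagln, an actin-binding protein of the same cells, was at 31349 and 29820.3 against 44939 and 60170.2, with p53 KO at 37197 to 82141. Acta2 and Tagln were chosen after their values were seen. In both the mutant libraries were close together and below the other 5. Tpm2, a tropomyosin, was at 8815 and 7336 against 13017 and 18715, and Cnn2, a calponin, at 17596 and 13618 against 22924 and 26417.

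Targets of YAP and SRF, the factors that respond to cell spreading and actin, leaned the same way. Of 26, 22 had a lower mean in Mdm2 C462A, 12 without overlap, with a median log2 difference of -0.53. Fhl1, a LIM-domain protein, was at 5314 and 5029 against 9712 and 17111, with p53 KO at 14392 to 20548. Nuak2, a kinase that acts on myosin phosphatase, was at 359.8 and 335 against 667 and 879. Ctgf, a matrix-associated growth factor often used as a readout of YAP and chosen after its values were seen, was at 7206 and 24330.0 against 25846 and 86238, so that its nearest libraries almost met. Birc5, the mitotic survival protein survivin, stands in this list and in the mitosis list. The list median was -0.21 without p53/Mdm2 KO replicate 2. Thbs1, thrombospondin of the matrix, was at 64698 and 33015 against 122192 and 285876. It was taken from another list, of extracellular matrix genes other than collagens. That list was split, with 26 higher and 28 lower of 54 at a median of -0.05.

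Among matrix proteases and inhibitors, 12 of 24 had a higher and 12 a lower mean in Mdm2 C462A. Mmp13, a collagenase, was at 151 and 801 against 84.4 and 16.7, a log2 difference of 2.65 (SE 0.919). Timp1, an inhibitor of such enzymes, was at 6007 and 2312 against 8524 and 9176, with p53 KO at 9557 to 10923, a log2 difference of -1.24 (SE 0.415). The 2 named members of this list thus lay in opposite directions, neither past the adjusted threshold.

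**Figure D3:**
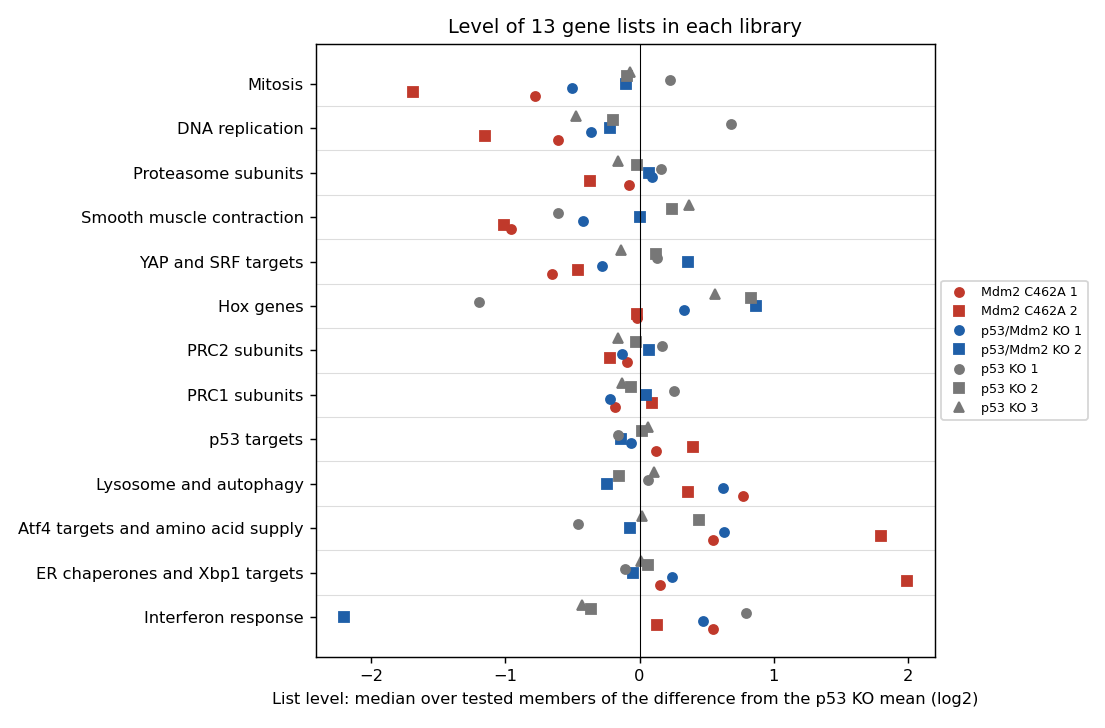
Level of 13 gene lists (y axis) in each of the 7 libraries, as the median over tested members of the difference from the p53 KO mean (x axis, log2); red marks Mdm2 C462A, blue p53/Mdm2 KO and grey p53 KO. Both red points lie left of both blue points for the mitosis list, at -0.78 and -1.69 against -0.50 and -0.10. The lists of ER chaperones and interferon response are each spread by 1 library. Atf4 targets are apart within both genotypes, at 0.55 and 1.80 in red and 0.63 and -0.07 in blue.

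The Polycomb complexes, which Mdm2 is known to bind, showed small differences. PRC2 places the repressive methyl mark on histone H3 and PRC1 adds ubiquitin to histone H2A. Of 12 PRC2 subunits, 10 had a lower mean in Mdm2 C462A with 5 lower and 2 higher without overlap and a median log2 difference of -0.20. Ezh2, the methyltransferase, was at 1444 and 1066 normalized reads in Mdm2 C462A, at 1632 and 2397 in p53/Mdm2 KO and at 2171, 1979.8 and 1761 in p53 KO. Its mutant libraries were below the other 5. Ezh2 is also known to follow cell division, whose part in these values was not tested. Suz12 and Eed, the other core subunits, were at 3274 and 3335 against 3202 and 4475, and at 1205 and 1136 against 1283 and 1330.0. Of 22 PRC1 subunits 10 had a higher and 12 a lower mean, 3 without overlap in each direction. Over all genes tested 15.8% were higher and 17.1% lower without overlap. The PRC1 median was -0.03 and turned to 0.02 with scaling to the library total. Rnf2, the ligase subunit that is a partner of Mdm2, overlapped at 1649 and 2072 against 1575 and 1821. Suz12, Eed and Rnf2 were chosen after their values were seen.

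Hox genes, classical targets of Polycomb silencing, were mostly lower with the mutant. Of 35 tested, 33 had a lower mean in Mdm2 C462A and 16 did not overlap, with a median log2 difference of -0.66 and none at an unadjusted p under 0.05. Their level was -0.02 in both Mdm2 C462A libraries and 0.33 and 0.87 in p53/Mdm2 KO, while the p53 KO libraries ran from -1.20 to 0.83. The distance between genotypes was thus smaller than that between p53 KO libraries. Hoxd13, of the distal limb, was at 183 and 198 in Mdm2 C462A, at 281 and 646 in p53/Mdm2 KO and at 7985, 704 and 753 in p53 KO. Other developmental transcription factors were split, with 39 higher and 44 lower of 83 tested. Hox levels also depend on the body region that fibroblasts come from, which the labels do not give.

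Targets of p53 showed no single direction in these p53-null cells. Of 42, 27 had a higher mean in Mdm2 C462A, at a median log2 difference of 0.12, and 10 were higher and 3 lower without overlap, against 15.8% and 17.1% of all genes. Trp53inp1, an autophagy and stress protein, was at 867 and 2297 against 509 and 157, with p53 KO at 188, 219 and 485. Phlda3, an inhibitor of Akt, was at 646 and 562 against 1018 and 1133, with p53 KO at 1656 to 2009.6, and Gtse1, a microtubule protein of G2 phase, at 659 and 338 against 883 and 1338. Cdkn1a, the p21 inhibitor of cyclin-dependent kinases and chosen after its values were seen, overlapped at 397 and 347 against 448 and 223. Of 24 genes of the Mdm2 circuit itself, 10 were lower without overlap and 2 higher, at a median of -0.16. Rassf1, a tumour suppressor that binds Mdm2, was at 2292 and 2208 against 3098 and 3729, with p53 KO at 3029 to 3756.

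The lists of stress and interferon genes rested largely on single libraries. All 24 ER chaperones and Xbp1 targets, which fold secreted proteins, had a higher mean in Mdm2 C462A at a median log2 difference of 0.93. Yet only 4 were higher without overlap, against 15.8% of all genes tested. The list level was 0.15 and 1.99 in Mdm2 C462A and 0.24 and -0.05 in p53/Mdm2 KO. Without Mdm2 C462A replicate 2 the median was 0.02. In the pair of first replicates 20 of the 24 were lower in Mdm2 C462A. Hspa5, the main chaperone of the ER, was at 59702 and 358998 normalized reads in Mdm2 C462A, at 62451 and 55086 in p53/Mdm2 KO and at 37776 to 54603 in p53 KO. Hsp90b1, its partner chaperone, was at 73926 and 322577 against 79801 and 69208. The second mutant library alone was high in both genes. This library also had the highest sum of the mesothelial markers, 40805 normalized reads against 2602 to 16437 in the other 6 libraries, with 0 of the 10 markers unread in all libraries; their part in the mitosis, ER chaperone and Atf4 values was not tested.

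Atf4 targets, which supply amino acids under stress, showed a weaker form of this. Of 36, 35 had a higher mean in Mdm2 C462A at a median log2 difference of 0.79, with 7 higher and 1 lower without overlap, a share near the 15.8% of all genes. The list level was 0.55 and 1.80 in Mdm2 C462A and 0.63 and -0.07 in p53/Mdm2 KO, and the median was 0.18 without Mdm2 C462A replicate 2 and 1.53 without replicate 1. Ddit3, a pro-death stress factor, was at 3686 and 21317 against 3329 and 1529.6. Sesn2, a sensor that restrains mTORC1, was at 1349 and 2253 against 1090.2 and 439, and Cebpb, a partner of Atf4 on DNA, at 1901 and 3776 against 1508 and 660.5. Asns, which makes asparagine, overlapped at 5698 and 8924 against 6941 and 4732. Serine and one-carbon genes were split, with 13 higher and 11 lower of 24.

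Interferon response genes were set apart by a p53/Mdm2 KO library, replicate 2, which had the lowest total, 28.5 M reads; the part of depth was not tested. Of 56 tested, 54 had a higher mean in Mdm2 C462A at a median log2 difference of 1.15. But 8 were higher and 1 lower without overlap, against 15.8% and 17.1% of all genes tested. Their level was 0.55 and 0.13 in Mdm2 C462A, 0.47 and -2.20 in p53/Mdm2 KO and 0.79, -0.36 and -0.43 in p53 KO. Without p53/Mdm2 KO replicate 2 the median was -0.10. Isg15, a ubiquitin-like modifier, was at 4820.3 and 3371 against 5068 and 96.6, and Ifi44 at 2117 and 2812 against 1201 and 37.3. Gbp1 thus differed from this pattern, at 11.1 in p53/Mdm2 KO replicate 1 and 2.58 in replicate 2, while Gbp2, a related GTPase, was at 1270.0 and 558 against 1199.7 and 112. Isg15, Ifi44 and Gbp2 were chosen after their values were seen.

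**Figure D4:**
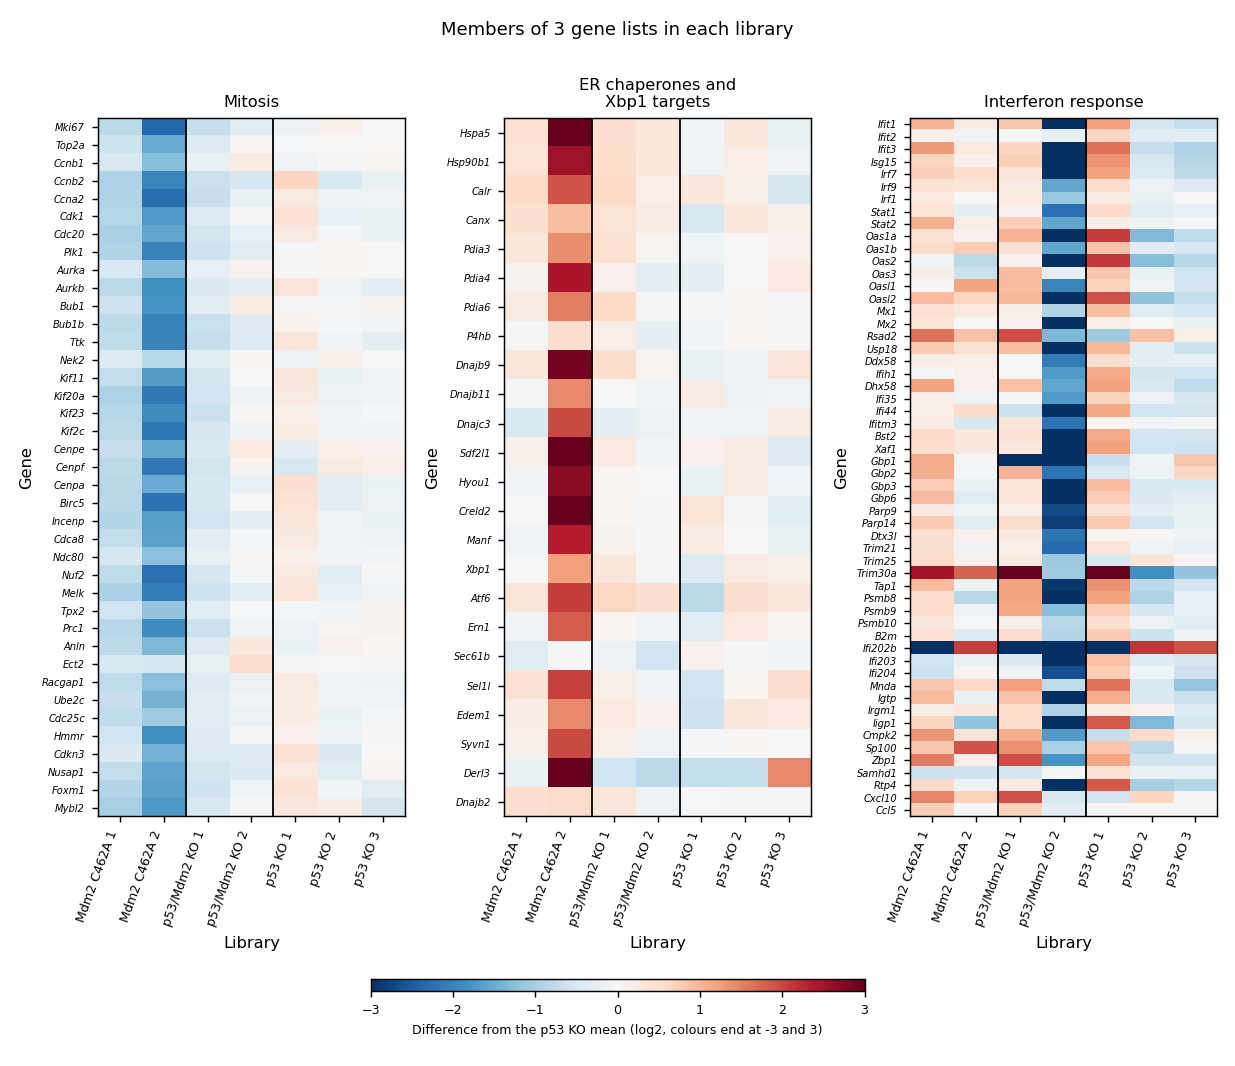
Difference of each gene from the p53 KO mean (colour, log2) for members of the mitosis, ER chaperone and interferon response lists (rows) in the 7 libraries (columns). Mitosis genes are lowest in Mdm2 C462A 2 and also low in Mdm2 C462A 1, ER chaperones are high in Mdm2 C462A 2 alone of the 4 libraries compared, and interferon genes are low in p53/Mdm2 KO 2.

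The promoters of these stress lists hold elements of the known pathways. The lists were made of known members of these pathways, so an excess of the elements says nothing about these libraries. Here all genes are the 27025 with a promoter entry, whether tested or not. The ER stress element, CCAAT and CCACG with 9 bases of any kind between them, was found in 9 of 21 chaperone promoters (42.9%) and in 0.137% of all genes. The amino acid response element TGATGNAA was found in 11 of 31 Atf4-list promoters (35.5%) and in 4.51% of all genes. The interferon-stimulated response element, TTTC repeated after 2 bases of any kind, was found in 20 of 39 interferon promoters (51.3%) and in 3.99% of all genes. These windows are shown for Hspa5 (chr2:34771985-34772083, plus strand), Asns (chr6:7693210-7693272, minus strand) and Gbp2 (chr3:142620564-142620653, plus strand), 1 from each list. The element is in capitals and overlaps none of the other motifs. A match is a description of the letters only.
Hspa5: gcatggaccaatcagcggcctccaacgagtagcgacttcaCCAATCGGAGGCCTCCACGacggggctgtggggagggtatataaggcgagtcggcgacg
Asns: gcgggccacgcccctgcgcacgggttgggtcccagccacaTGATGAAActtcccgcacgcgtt
Gbp2: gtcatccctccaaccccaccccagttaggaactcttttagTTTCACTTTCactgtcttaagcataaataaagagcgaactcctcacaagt
Hspa5 and Asns were highest of the 4 libraries in Mdm2 C462A replicate 2, and Gbp2 was lowest in p53/Mdm2 KO replicate 2.

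Lysosome and autophagy genes leaned higher with the mutant. Of 28 tested, 24 had a higher mean in Mdm2 C462A at a median log2 difference of 0.41. Without overlap 7 were higher and 2 lower, against 15.8% and 17.1% of all genes tested. Npc1, which exports cholesterol from lysosomes, was at 5438 and 5724 against 3724 and 2939, with p53 KO at 3634 to 4588. Mcoln1, a lysosomal calcium channel, was at 3729 and 4584 against 3101 and 1863, with p53 KO at 1344 to 1631. The list level was 0.77 and 0.36 in Mdm2 C462A and 0.62 and -0.24 in p53/Mdm2 KO, and the median was 0.04 without p53/Mdm2 KO replicate 2 and 0.93 without replicate 1.

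Several smaller groups had members without overlap, as had 32.9% of all genes tested. The 3 tested proliferin genes, placental hormones of the prolactin family whose near-identical copies share reads and are uncertain one by one, were all lower, Prl2c2 for example at 35.1 and 27.3 against 69.6 and 242. Among 26 inflammatory genes 7 were lower and 1 higher without overlap, against 17.1% and 15.8% of all genes tested. Tnfaip3, a brake on NF-kB, was at 216 and 331 against 409 and 1101. Hmox1, the haem-degrading enzyme, was at 8258 and 9277 against 5033 and 4607, with p53 KO at 2303 to 4324. Its list of Nrf2 targets and glutathione genes was split, with 16 higher and 14 lower of 30. Eno1, a glycolytic enzyme, was at 18928 and 14117 against 27678 and 25763. The hypoxia and glycolysis list that holds it was split too, with 14 higher and 18 lower of 32. Id2, a target of BMP signalling, was at 719.7 and 529 against 1214 and 1318. In its list of TGF-beta and BMP genes 15 were higher and 22 lower of 37, at a median of -0.04. Ribosomal protein genes were split, with 27 higher and 33 lower of 60, as were those of oxidative phosphorylation, with 24 and 28 of 52; both medians were -0.02, and 0.03 with scaling to the library total.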

How the data were processed

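Per the labels' protocols, total RNA was made into libraries and read from 1 end, 50 bp a read. The submitters' processing notes name CASAVA 1.8.2, Bowtie2 2.1.0, DESeq 1.14.0 and build mm9 without their roles; how genes were counted, and whether by strand, is not given in the sources used here. Overlapping, antisense and near-identical genes therefore cannot be separated. The authors deposited log2-like values from a variance-stabilizing transformation, with 3.36 for a gene without reads. Inverting it gave normalized reads, and 1 step per library gave whole reads for 100% of values within 0.05.

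Genotypes came from sample titles. limma 3.58.1 (R 4.3.3) was fitted to the deposited values with group means over 7 libraries and a mean-variance trend (4 residual degrees of freedom), two-sided, with Benjamini-Hochberg adjustment over genes with a mean of at least 10 normalized reads; the fit was tested on simulated data. The 2 replicates of each genotype differed beyond sampling noise. Alternatives changed the scale, pseudocount, filter, scaling, variance model, covariates and libraries.

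Named genes were Mdm2, Trp53 and Mdm4; up to 10 with the largest difference in each direction, at an unadjusted p under 0.01 because none passed the adjusted threshold, with no overlap and at least 100 normalized reads in the higher group; up to 3 per position class; and up to 3 per list at the smallest unadjusted p under 0.05 or else the highest mean. Genes outside this rule are marked or are list examples chosen after their values were seen. An entry whose symbol had been changed to a date, and a few genes taken by the rule, are not reported here. Members and lists were chosen with earlier results of these data known. Promoter sequences are RefSeq's (GRCm38.p6), matched by symbol.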

Additional observations from a re-analysis of the deposited data

How the results depend on the processing

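The adjusted threshold was passed by 0 genes in the fit and in all 21 alternatives. The number at an unadjusted p under 0.05, 503, became 787 with no filter, 279 with the replicate number as a block, and 61 to 1519 with 1 library left out. Deviations of same-numbered libraries of the 2 genotypes from their group means correlated at 0.039. With 2 libraries a genotype this value is the same for both numbers by construction, so it is 1 check. It neither shows nor excludes that the numbers pair the libraries. The number of genes with a gap of at least 1 on the log2 scale, 46, became 117 on log2 of normalized reads plus 1, 118 with scaling to the library total, 116 with the upper quartile, and 110 to 1332 with 1 library left out, where fewer samples must not overlap. Of 672 list medians under alternatives 640 moved by less than the spread, the SD of list levels within genotypes, and 32 by more. Leaving out a p53 KO library or changing only the variance model cannot move these medians, so much of the 640 was fixed in advance. The spread was wide, and the interferon change given next counts among the 640. The sign differed in 44 of the 672, in 17 lists; among these, interferon response went from 1.15 to -0.10 without p53/Mdm2 KO replicate 2, and PRC1 from -0.03 to between 0.02 and 0.15 in 4 alternatives. The DNA replication median was -0.30 without both p53 KO replicate 1 and Mdm2 C462A replicate 2. With 1 library left out the medians ran from -0.92 to -0.30 for DNA replication, 0.18 to 1.53 for Atf4 targets, 0.02 to 1.90 for ER chaperones, -0.10 to 2.57 for interferon response, -0.98 to -0.56 for smooth muscle contraction, -0.32 to -0.14 for PRC2, -1.12 to -0.45 for Hox genes, -0.45 to -0.17 for proteasome subunits and 0.04 to 0.93 for lysosome genes. Of 1532 gene differences under alternatives 13 were reversed, all of genes whose genotypes overlapped. A gene without overlap cannot change sign when 1 library is left out, and many named genes were picked for no overlap. The low count was thus partly fixed in advance. Without both libraries named above, Hsp90b1 (1.05 in the fit of all libraries) was -0.01, Rplp0 (0.12) -0.05, Sfrp2 (-1.28) 0.58 and Ccnd2 (-0.07) 0.02. With 1 library left out, Hsp90b1 ran from -0.01 to 2.12, Rplp0 from -0.05 to 0.29, Sfrp2 from -3.15 to 0.58, Ccnd2 from -0.19 to 0.06, Cyp51 (0.26) from -0.42 to 0.93, Cbx6 (0.19) from -0.19 to 0.57 and Igf2 (0.50) from -0.68 to 1.67; Mdm2 C462A replicate 1 or 2, or p53/Mdm2 KO replicate 2, was the library left out where the sign turned. The causes were not tested. With 1 library left in a genotype, it is assumed to vary like the other groups. Depth limits genes near 3 reads, such as Gbp1 in p53/Mdm2 KO replicate 2.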
